A study of Mus musculus with 21 samples.

Results

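Immediate early transcription factors are described here in the mouse heart through 10 genes of the 19096 in the authors' gene matrix, taken by gene name: Fos, Fosb, Jun, Junb, Egr1, Nr4a1, Nr4a2, Nr4a3, Atf3 and Ier2. Each name matched 1 gene of the matrix. The rule uses no measured value, but the list was proposed with earlier results of these data known. The study sequenced RNA from heart tissue of 21 male C57BL/6NJ mice, 1 library per animal, to compare a combined diet and renin model of heart failure of the preserved-ejection kind with each of its components. Mice entered at 8 to 10 weeks of age and spent 10 weeks on chow or on a high-fat diet (60% of calories as fat). They received an adeno-associated virus (AAV) carrying renin, the enzyme that starts the angiotensin cascade, or a null vector, by injection behind the eye, and hearts were taken 6 weeks later under pentobarbital and freeze-clamped. The groups were chow control (chow, null vector, n = 4), chow renin (chow, AAV-Renin, n = 6), high-fat control (high-fat diet, null vector, n = 6) and high-fat renin (high-fat diet, AAV-Renin, n = 5). The sample labels call the null vector hearts no virus, while the series description names a null vector. The promoter and the target tissue of the renin vector are not given in the sources used here, nor is the hour at which hearts were taken. No source ties libraries to a cage, litter or day, so p-values measure the spread between these hearts.

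Immediate early genes are transcribed within minutes of a stimulus without new protein synthesis, because their promoters are read by factors that already sit in the nucleus, such as SRF with its ELK partners and CREB. Their products include the AP-1 subunits of the FOS and JUN families, the zinc finger factor EGR1, the NR4A orphan nuclear receptors and the stress factor ATF3, and these set the second wave of genes. In the heart they respond to pressure load, adrenergic and angiotensin signals, ischaemia and handling of the tissue. Their transcripts are short-lived.

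In reads scaled to library size (CPM), Nr4a2 was lower in all 11 high-fat hearts than in any of the 10 chow hearts, with either vector, as were 0.263% of all genes tested. In TPM and in the authors' deposited table, up to 3 high-fat hearts lay above the lowest chow heart. Nr4a1 was lower in high-fat renin than in chow control by 1.59 on the log2 scale (adjusted p = 0.0447, edgeR). Leaving out a single library ended that call in 10 of 21 fits. None of the 10 genes passed the edgeR test for renin within chow or within the high-fat diet. The other 8 genes passed none of the 6 comparisons by that test.

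The promoters of the 3 NR4A genes and of Fos are printed below, because Nr4a1 and Nr4a2 are the genes that passed among the 6 comparisons; their relative Nr4a3 and the AP-1 gene Fos are set beside them. Each run is the 250 bases before the transcription start, 5′ to 3′ on the strand of the gene, from RefSeq on GRCm38.p6, in which 8 of the 10 genes had an entry (not Egr1 or Ier2). Capitals mark the core of the cyclic AMP response element (CRE), the letters TGACG on either strand, which read CGTCA on the other.
Nr4a1 promoter, chr15:101266596-101266845, plus strand: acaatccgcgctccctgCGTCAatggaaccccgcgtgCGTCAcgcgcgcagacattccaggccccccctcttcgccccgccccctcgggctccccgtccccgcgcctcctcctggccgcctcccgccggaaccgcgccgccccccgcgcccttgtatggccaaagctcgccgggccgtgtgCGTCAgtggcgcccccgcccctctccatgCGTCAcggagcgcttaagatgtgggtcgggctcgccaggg
Nr4a2 promoter, chr2:57124004-57124253, minus strand: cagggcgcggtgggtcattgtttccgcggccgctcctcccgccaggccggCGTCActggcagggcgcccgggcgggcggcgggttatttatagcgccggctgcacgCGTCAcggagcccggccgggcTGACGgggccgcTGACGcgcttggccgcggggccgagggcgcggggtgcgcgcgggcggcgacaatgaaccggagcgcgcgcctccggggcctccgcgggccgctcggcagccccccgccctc
Nr4a3 promoter, chr4:48045055-48045304, plus strand: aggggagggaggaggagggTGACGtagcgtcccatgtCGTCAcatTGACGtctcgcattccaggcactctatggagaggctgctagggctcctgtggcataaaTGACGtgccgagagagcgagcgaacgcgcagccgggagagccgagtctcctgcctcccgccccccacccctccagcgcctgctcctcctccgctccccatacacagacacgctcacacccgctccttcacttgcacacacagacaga
Fos promoter, chr12:85473640-85473889, plus strand: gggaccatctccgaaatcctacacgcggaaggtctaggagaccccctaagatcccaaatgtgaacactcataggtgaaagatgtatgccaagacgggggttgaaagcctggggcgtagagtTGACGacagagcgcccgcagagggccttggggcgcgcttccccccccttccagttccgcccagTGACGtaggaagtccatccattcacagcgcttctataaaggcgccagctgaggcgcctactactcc

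Nr4a1, Nr4a2 and Nr4a3 each held 4 CRE cores in that window, Fos held 2, Fosb, Junb and Atf3 held 1 each and Jun held 0. Of 32851 RefSeq promoter windows of the same length, 17.8% held at least 1 CRE core and 0.137% held 4 or more. The GC content of the windows was 74.4% for Nr4a1, 80.0% for Nr4a2, 63.6% for Nr4a3 and 58.4% for Fos, above the median of 52.4% over all windows. The EGR site, searched as GCGNGGGCG on both strands, occurred 1 time each in Nr4a1, Nr4a2 and Fosb and in 4.70% of all windows. The full CRE (TGACGTCA, which contains the core, in 1.55% of all windows), the AP-1 site (TGANTCA, 6.75%), the NR4A monomer site NBRE (AAAGGTCA, 1.34%) and the CArG box (1.47%), all searched on both strands, had no match in the 8 windows. A match is a description of letters, and binding at these windows was not measured. Bases further upstream were not searched, so a window without a match does not mean that the gene lacks such a site.

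Library totals were 18.6 to 21.2 M (mega) estimated reads in chow control and 22.6 to 29.0 M in the other 3 groups, so every chow control library was shallower than any other. Of the 10 genes, all 10 passed the filter on low counts, with between 23 (the lowest Fosb library) and 2787 estimated reads (the highest Nr4a1 library). Cardiomyocyte genes marked the tissue as heart: the summed level of 6 markers was 40105 to 60656 CPM in every library. Of 3 lists of nervous markers, all of whose genes had reads, 2 stood apart in chow renin by their sums: 7 central neuron genes summed to 120 to 195 CPM there against 28.4 to 54.6 CPM in the other groups, and 5 oligodendrocyte genes to 91.6 to 155 against 23.4 to 46.7 CPM. The sum of 4 astrocyte genes did not, at 322 to 437 CPM in chow renin and 295 to 491 CPM elsewhere. Gja1, a connexin that cardiomyocytes also make, had group means of 278 to 353 CPM in that sum, while Gfap and Slc1a2 rose in chow renin against chow control (log2 2.43 and 2.38). A list of 10 genes of stimulated mesenchymal cells, chosen from earlier results of these data, summed to 428 to 516 CPM in chow renin and 92.3 to 127 CPM elsewhere. Atrial markers varied between libraries of every group: the highest sum of 5 genes in a group was 471 to 694 CPM, and the group medians were 6.28 to 15.8 CPM. In bulk heart tissue a change in the number of cells of a type and a change in RNA per cell cannot be told apart.

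**Figure D1:**
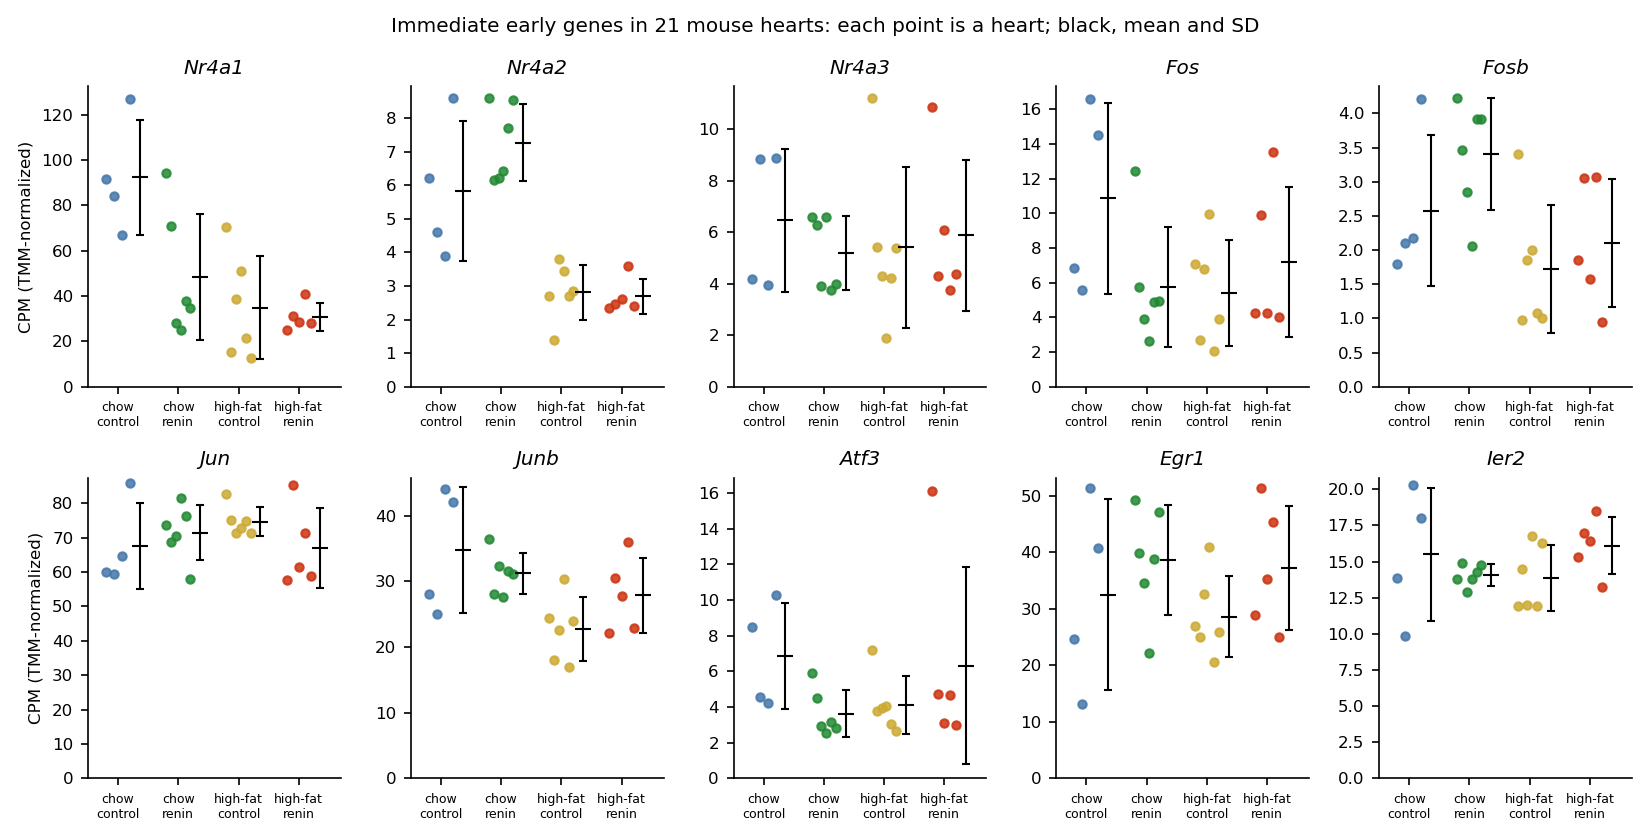
TMM-normalized CPM (vertical axis, from 0, a separate scale per gene) of the 10 genes in each of the 21 hearts by group (horizontal axis); points are hearts, black marks are the group mean and SD. For Nr4a2 the 11 high-fat hearts reach at most 3.80 CPM and the 10 chow hearts at least 3.89 CPM, whereas Jun lies between 57.8 and 86.0 CPM with the groups overlapping.

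Levels of different genes were compared in TPM, the share of all transcripts that also corrects for transcript length. In chow control Nr4a1 stood first at 38.9 ± 7.49 TPM (SD, n = 4), above the ranges of the next genes, Junb at 18.1 ± 5.25 and Jun at 18.1 ± 3.14 TPM. Ier2, Egr1, Fos, Atf3, Nr4a2, Nr4a3 and Fosb followed in that order, from 9.98 to 0.697 TPM, with overlapping ranges between neighbours. In chow renin Nr4a1 (21.3 ± 13.2 TPM, n = 6) overlapped Jun (20.7 ± 2.43 TPM). In both high-fat groups the order began with Jun, at 18.5 ± 1.68 TPM in high-fat control (n = 6) and 18.0 ± 2.37 TPM in high-fat renin (n = 5), and Nr4a1 came next at 13.0 ± 8.63 and 14.6 ± 4.43 TPM, with ranges that overlapped those of Jun and Junb. Fosb held the lowest mean in 3 groups and Nr4a3 in chow renin, and those 2 genes reached at most 1.67 TPM in any heart. Short transcripts weigh on the TPM of 2 genes. For Nr4a1 a transcript of 344 bases, with 97.1 estimated reads over 18 libraries, counted for up to 5.37 TPM in a heart. Without transcripts under 400 bases Nr4a1 still stood first in chow control at 36.5 ± 7.45 TPM, but its mean came after Jun in chow renin (20.1 ± 12.3 TPM) and after Jun and Junb (14.4 ± 2.37 TPM) in high-fat renin (12.8 ± 3.45 TPM), so these neighbours have no settled order. For Nr4a2 a noncoding transcript of 182 bases took 1 read in each of 4 libraries and counted there for up to 2.32 TPM. Without transcripts under 400 bases Nr4a2 measured 1.53 ± 0.536 TPM (chow control) and 2.13 ± 0.555 TPM (chow renin), and 0.762 ± 0.278 TPM (high-fat control) and 0.757 ± 0.114 TPM (high-fat renin).

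Nr4a2 encodes NURR1, an orphan nuclear receptor known for its role in dopamine neurons and in macrophages (GRCm38, chromosome 2, 57106830 to 57124003, minus strand). Its level is given in TMM-normalized CPM, which scales each library for depth and composition. The 4 chow control hearts measured 6.23, 4.61, 3.89 and 8.58 CPM. In the 6 chow renin hearts Nr4a2 ran from 6.17 through a median of 7.05 to 8.59 CPM. The chow groups overlapped, and 1 chow renin heart lay above all chow control hearts. High-fat control hearts ran from 1.41 through a median of 2.78 to 3.80 CPM (n = 6). The 5 high-fat renin hearts measured 2.36, 2.47, 2.62, 3.59 and 2.41 CPM. The high-fat groups overlapped each other and lay wholly below the chow groups, a separation that 40 of 15216 genes (0.263%) showed in that direction. On other scales the diets overlapped. In TPM chow control 3 stood at 1.002, below high-fat control 3 at 1.18 and high-fat renin 4 at 2.55, and without transcripts under 400 bases high-fat control 3 still lay above it. In the authors' deposited table chow control 3 had a signal of 1.25, below high-fat control 3 at 1.55, high-fat control 4 at 1.42 and high-fat renin 4 at 3.45. The margin was narrow: the highest high-fat heart, high-fat control 3, had 96 estimated reads and the lowest chow heart, chow control 3, had 75 in a shallower library. Both of these hearts also had the highest atrial score (mean log2 CPM of the list) of their group. With the atrial score as a covariate Nr4a2 gave log2 -1.12 (SE 0.23, adjusted p = 0.00428, edgeR) in the combined model against chow control.

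Against chow control, Nr4a2 fell in high-fat renin by 2.17-fold, a log2 fold change of -1.11 (SE 0.23, adjusted p = 0.00441, edgeR quasi-likelihood test with Benjamini-Hochberg adjustment over 15216 genes). With limma on the log2 of the authors' normalized signal (pseudocount 1) Nr4a2 gave -0.62 (adjusted p = 0.233), which ends the call. These groups did not overlap in CPM, as was true of 5.07% of all genes in that direction. Against chow renin it fell in high-fat renin by 2.69-fold (log2 -1.43, SE 0.21, adjusted p = 1.47e-05), and those groups too did not overlap in CPM, as was true of 9.78% of all genes in that direction. The difference between high-fat control and chow control was of like size, log2 -1.05 (SE 0.22), without passing (adjusted p = 0.0749, edgeR), although the hearts of those groups did not overlap in CPM, as was true of 1.36% of all genes in that direction. Without high-fat control 4 the last comparison gave -1.11 and an adjusted p of 0.0319. The effect of renin on Nr4a2 was log2 0.32 (SE 0.21) on chow and -0.07 (SE 0.21) on the high-fat diet, and the interaction of diet and renin was -0.38 (SE 0.30, adjusted p = 0.499, edgeR). Since high-fat renin enters both of the comparisons that passed, they share those hearts. A comparison chosen after the data were seen set the mean of both high-fat groups against that of both chow groups and gave log2 -1.24 (SE 0.15, adjusted p = 1.03e-05, edgeR) for Nr4a2.

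Marker values of several lists moved with the Nr4a2 and Nr4a1 comparisons. In high-fat renin against chow control 4 of 6 cardiomyocyte genes fell (median of the list log2 -0.37) and 1 of 5 heat shock genes that respond to handling rose, next to 8.29% of all genes that passed in either direction. Against chow renin, where 22.6% of all genes passed, 3 cardiomyocyte genes fell and 1 rose, and 2 heat shock genes, 2 of 5 endothelial genes and 1 of 5 fibroblast genes rose. All 10 stimulated mesenchymal, all 7 central neuron, all 5 oligodendrocyte and 2 of 4 astrocyte genes fell there, as did 2 of 8 day output genes of the clock, of which 3 fell against chow control. The stimulated mesenchymal list and Nrxn3 of the central neuron list came from earlier results of these data. Their share in these counts is not independent evidence. The clock score, the mean log2 CPM of 8 day output genes such as Dbp minus that of the positive limb genes such as Arntl, spanned 3.06 to 3.30 on chow and 2.69 to 3.08 on the high-fat diet in the null vector groups, and 2.44 to 2.81 on chow and 2.02 to 2.81 on the high-fat diet with renin. With this score as a covariate Nr4a2 gave log2 -0.56 (SE 0.37, adjusted p = 0.834, edgeR) in high-fat renin against chow control, where 0 of 15216 genes passed and 930 had an unadjusted p under 0.05. Against chow renin it gave -1.31 (SE 0.21, adjusted p = 6.69e-05), and averaged over both vectors -1.06 (SE 0.17, adjusted p = 0.000763). The central neuron score was 3.59 to 4.29 in chow renin and 1.56 to 2.54 elsewhere. In comparisons with chow renin this score and the group can therefore hardly be told apart. With the central neuron score as a covariate the difference between high-fat renin and chow renin was -1.38 with an SE of 0.61 (adjusted p = 0.9997, edgeR). With that covariate high-fat renin against chow control gave -1.13 (SE 0.27, adjusted p = 0.0117). In chow control the central neuron genes summed to 28.4 to 35.5 CPM, next to 30.4 to 54.6 CPM in the high-fat groups, and the astrocyte genes to 313 to 491 CPM, next to 295 to 417 CPM. Only the clock, central neuron and atrial scores were fitted as covariates, so handling and the other marker lists had none. The part of these cells and of the clock in the Nr4a2 and Nr4a1 differences was not tested beyond those covariates, and that of handling was not tested.

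**Figure D2:**
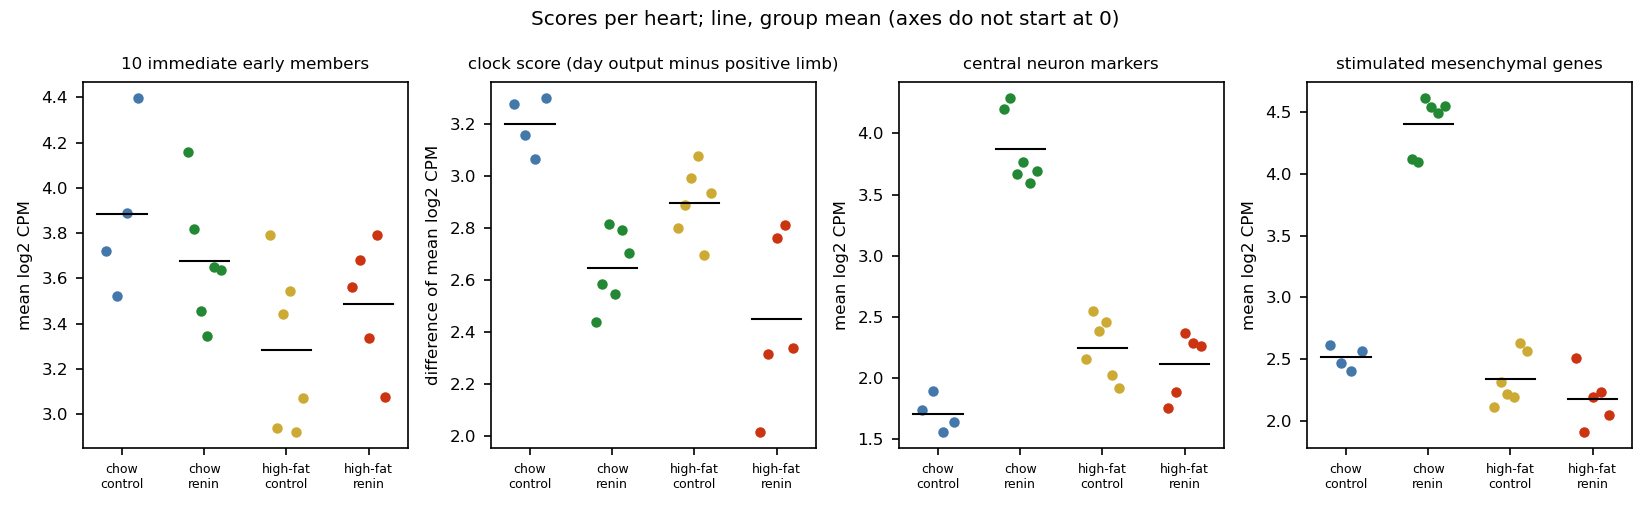
Marker scores (vertical axes, mean log2 CPM of a list or, for the clock, a difference of such means; the axes do not start at 0) in each heart by group (horizontal axes); points are hearts and lines are group means. Chow renin stands apart in the central neuron score, at 3.59 to 4.29. Chow control has the highest mean clock score, with hearts at 3.06 to 3.30, and overlaps high-fat control, which reaches 3.08.

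Nr4a1 encodes NUR77, the NR4A gene with the highest TPM in these hearts (chromosome 15, 101254269 to 101274795, plus strand). The chow control hearts measured 91.6, 84.1, 66.8 and 127 CPM. Chow renin hearts ran from 25.0 through a median of 36.5 to 94.3 CPM (n = 6). Of those 6, replicates 1 and 2 at 94.3 and 70.9 CPM lay within the range of chow control, and the other 4 lay below it. High-fat control hearts ran from 12.6 through a median of 30.1 to 70.4 CPM (n = 6), with 1 heart inside the range of chow control. The high-fat renin hearts were close together at 25.1, 31.3, 28.4, 40.8 and 28.0 CPM. All 5 high-fat renin hearts lay below all 4 chow control hearts, as for Nr4a2 and 5.07% of all genes in that direction. Between these groups Nr4a1 fell by 1.59 in log2 units (SE 0.47; adjusted p = 0.0447, edgeR). It gave log2 -1.40 (SE 0.44, adjusted p = 0.262) in high-fat control and -0.93 (SE 0.44, adjusted p = 0.202) in chow renin, each against the same 4 chow control hearts. Against chow renin, high-fat renin gave -0.66 (SE 0.43, adjusted p = 0.308), and against high-fat control -0.18 (SE 0.43, adjusted p = 0.834). The call lay near the threshold: leaving out a single library ended it 10 times (without chow control 1, 2 or 4, chow renin 5 or 6, high-fat control 3, high-fat renin 1, 2, 3 or 5), at adjusted p = 0.0504 to 0.136 by edgeR and log2 -1.39 to -1.64. With the clock score as a covariate Nr4a1 gave -1.56 with an SE of 0.83 (adjusted p = 0.805), and with the replicate number as a block -1.44 (adjusted p = 0.0599). With no filter on low counts (adjusted p = 0.0693) and with limma on the authors' signal (-1.41, adjusted p = 0.0630) Nr4a1 did not pass either. The central neuron score as a covariate left the call, at -2.13 (SE 0.49, adjusted p = 0.0125, edgeR).

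Nr4a3 encodes NOR1, the third receptor of the family (chromosome 4, 48045153 to 48086447, plus strand), and it showed no such separation. Null vector hearts averaged 6.46 ± 2.77 CPM on chow (SD, n = 4) and 5.40 ± 3.12 on the high-fat diet (n = 6). Renin hearts averaged 5.19 ± 1.43 CPM on chow (n = 6) and 5.88 ± 2.93 on the high-fat diet (n = 5). The groups overlapped throughout. Its highest hearts were high-fat control 1 at 11.2 CPM and high-fat renin 1 at 10.9 CPM. The combined model against chow control gave log2 -0.14 for Nr4a3 (SE 0.41, adjusted p = 0.871, edgeR).

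Of the AP-1 subunits among the 10 genes, Fos, Fosb, Jun and Junb, 0 passed in the 6 comparisons by edgeR. At an unadjusted p under 0.05, Junb was lower in high-fat control against chow control and Fosb in high-fat renin against chow renin (log2 -0.70). Differences were small for Jun and wide in spread for Fos. Jun, the main partner of FOS proteins (chromosome 4, 95049034 to 95052222, minus strand), kept close group means. On chow it averaged 67.5 ± 12.5 CPM (SD, n = 4) without and 71.4 ± 7.98 (n = 6) with renin. On the high-fat diet it averaged 74.7 ± 4.26 (n = 6) without and 67.0 ± 11.5 (n = 5) with renin. All log2 fold changes of Jun in the comparisons of 2 groups lay between -0.16 and 0.15, with SE of 0.10 to 0.12. Fos, the classic rapid-response subunit (chromosome 12, 85473890 to 85477273, plus strand), measured 6.82, 5.55, 16.6 and 14.5 CPM in chow control. Its chow renin hearts ran from 2.65 through a median of 4.89 to 12.4 CPM (n = 6), and its high-fat control hearts from 2.07 through 5.34 to 9.94 CPM (n = 6). The high-fat renin hearts measured 4.26, 9.93, 4.27, 13.5 and 4.05 CPM. Every group of Fos overlapped every other, and the mean of chow control, 10.9 CPM, was above those of the other groups, 5.40 to 7.21 CPM. The log2 fold changes of Fos against chow control were -0.91 (SE 0.50, adjusted p = 0.273, edgeR) with renin on chow and -0.59 (SE 0.52, adjusted p = 0.526) with renin and the high-fat diet, and -1.004 (SE 0.50, adjusted p = 0.479) with the high-fat diet alone. Fosb, a FOS relative that builds up with repeated stimulation in the brain (chromosome 7, 19302696 to 19310051, minus strand), had group means of 1.72 to 3.41 CPM and passed in none of these comparisons.

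Junb, a JUN family member that often opposes JUN (chromosome 8, 84974484 to 84978718, minus strand), measured 28.1, 25.1, 44.0 and 42.1 CPM in chow control. Chow renin hearts ran from 27.7 through a median of 31.3 to 36.4 CPM (n = 6), and high-fat control hearts from 16.9 through 23.3 to 30.4 CPM (n = 6). The 5 high-fat renin hearts measured 22.2, 30.5, 27.8, 35.96 and 22.9 CPM. Of the 6 high-fat control hearts, 5 lay below all chow control hearts and 1 overlapped them. High-fat control against chow control gave log2 -0.61 (SE 0.17, adjusted p = 0.186, edgeR; adjusted p = 0.0450 by DESeq2). Averaged over both vectors, the comparison chosen after the data were seen, Junb fell by 0.39 log2 units (SE 0.12, adjusted p = 0.0368, edgeR), and leaving out a single library ended that call 7 times (without chow control 3 or 4, chow renin 1, high-fat control 2 or 5, high-fat renin 1 or 5), at adjusted p = 0.0536 to 0.0938. That Junb call was also lost with the clock score as a covariate (-0.26, SE 0.13, adjusted p = 0.300) and with no filter on low counts (adjusted p = 0.0608). With the central neuron score it was lost at a like value and a wider SE (-0.37, SE 0.20, adjusted p = 0.897, edgeR). The Junb gene shares 351 bases (chromosome 8, 84974484 to 84974834) with the opposite-strand gene Prdx2, which had 7.67 times as many reads. All Junb reads were assigned to a transcript of 1809 bases, and 0 to its other transcript of 492 bases. Whether the first reaches the shared bases was not examined. Whether reads were assigned by strand is not given in the sources used here, so the Junb values are uncertain to that extent.

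Egr1, a zinc finger factor of growth and load responses (chromosome 18, 34859823 to 34864984, plus strand), varied widely within groups: 24.7, 13.2, 51.3 and 40.8 CPM in chow control, and 22.2 through a median of 39.4 to 49.3 CPM in chow renin (n = 6). High-fat control hearts ran from 20.5 through 26.4 to 40.9 CPM (n = 6), and high-fat renin hearts measured 28.9, 51.3, 35.2, 45.4 and 25.1 CPM. The groups overlapped, and the combined model differed from chow control by 0.19 in log2 units (SE 0.32, adjusted p = 0.763, edgeR). Ier2, a small nuclear regulator (chromosome 8, 84661331 to 84662852, minus strand), kept group means of 13.9 to 16.1 CPM. Its log2 fold changes in the comparisons of 2 groups lay between -0.16 and 0.21.

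Atf3, a stress factor of the CREB and ATF family (chromosome 1, 191170296 to 191218039, minus strand), had 1 heart far above its group. Chow control hearts measured 8.47, 4.55, 4.21 and 10.3 CPM, and chow renin hearts ran from 2.53 through a median of 3.03 to 5.92 CPM (n = 6). High-fat control hearts ran from 2.67 through 3.86 to 7.19 CPM (n = 6), and high-fat renin hearts measured 16.1, 4.72, 3.12, 4.67 and 2.96 CPM. High-fat renin 1 was the highest of all 21 hearts, and the other 4 of its group lay within the range of the other groups. Chow renin against chow control gave log2 -0.92 (SE 0.44, adjusted p = 0.199, edgeR), and without high-fat renin 1, which takes no part in that comparison but in the shared estimate of the spread, -0.91 and adjusted p = 0.0484. The interaction of diet and renin for Atf3 was 1.53 (SE 0.60, unadjusted p = 0.0204, adjusted p = 0.124, edgeR), and without high-fat renin 1 it was 0.81 (SE 0.43, adjusted p = 0.320), below the 1.44 of Fos in that fit (SE 0.71, adjusted p = 0.288).

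**Figure D3:**
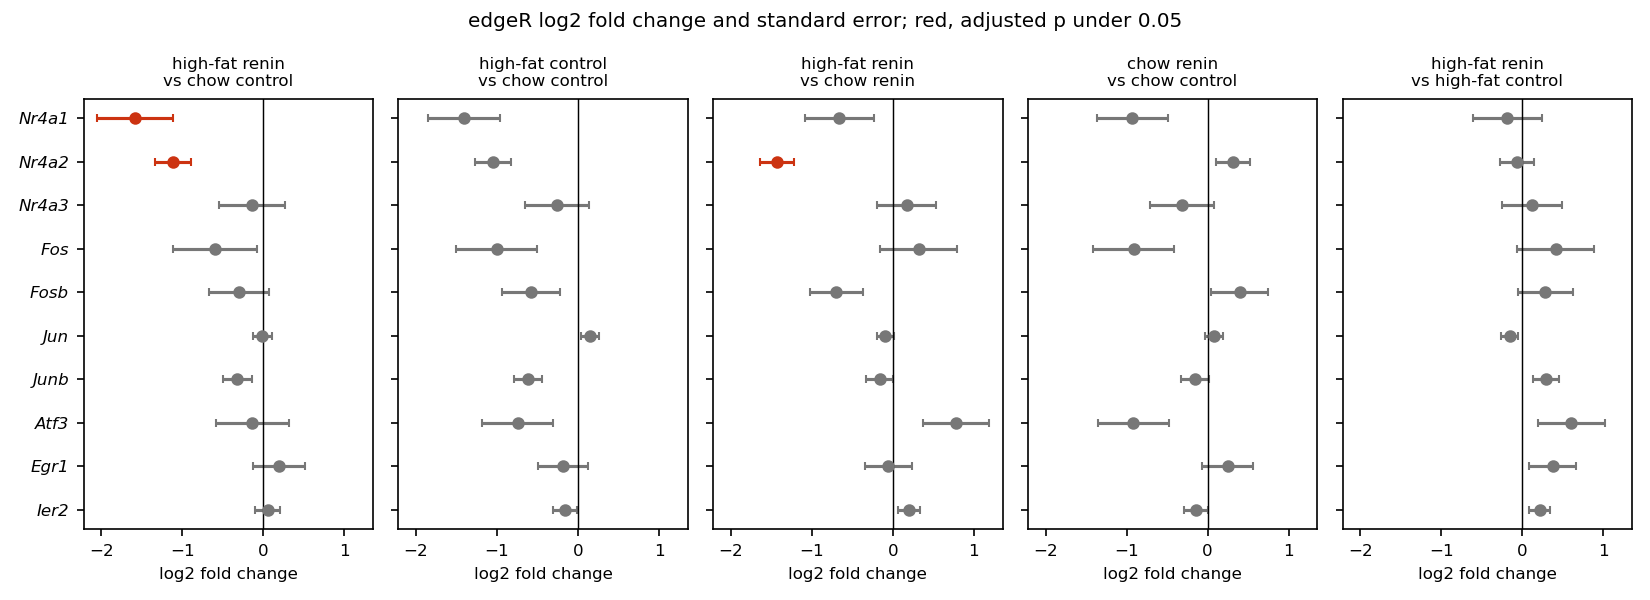
Log2 fold change (horizontal axes) with its standard error for the 10 genes (vertical axes), 1 panel per comparison; red marks an adjusted p under 0.05 by edgeR. Nr4a2 at -1.11 and Nr4a1 at -1.59 pass in the panel of high-fat renin with chow control, and Nr4a2 at -1.43 passes in high-fat renin against chow renin.

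Set side by side, the combined model against chow control had 2 of the 10 genes passing, both lower, where 8.29% of all genes tested passed in either direction and 4.25% were lower. Of these 2, Nr4a1 lost its call in 10 of 21 single-library fits. Both lost it with the clock score and with limma on the authors' signal. The median log2 fold change of the 10 was -0.22 against 0.01 over all genes. High-fat renin against chow renin had 1 of 10, lower, against 22.6% of all genes, 12.8% lower, with medians of -0.07 and 0.02. Chow renin against chow control had 0 of 10 by edgeR, limma-voom or DESeq2 against 13.5% of all genes, and 1 gene, Atf3, had an unadjusted p under 0.05, as did 25.1% of all genes. High-fat control against chow control had 0 of 10 by edgeR and 2, Junb and Nr4a2, by DESeq2, against 0.0657% of all genes by edgeR and 0.815% by DESeq2, and 3 of the 10 (Nr4a2, Junb and Nr4a1) had an unadjusted p under 0.05, all lower, as were 5.21% of all genes. High-fat renin against high-fat control had 0 of 10 by edgeR, limma-voom or DESeq2 and 0 at an unadjusted p under 0.05, against 11.1% and 26.5% of all genes by edgeR. For the interaction 0 of 10 passed by the same 3 tools against 10.4% of all genes, and Atf3 had an unadjusted p under 0.05, as had 23% of all genes. Averaged over both vectors, diet had 3 of 10 (Nr4a2, Nr4a1 at log2 -1.03 with adjusted p = 0.0375, and Junb) against 12.3% of all genes, 7.78% lower. With the clock score, the central neuron score or no filter on low counts Nr4a2 alone passed there. Nr4a1 gave -1.02 (SE 0.38, adjusted p = 0.140), -0.16 (SE 0.49, adjusted p = 0.9998) and -1.04 (SE 0.31, adjusted p = 0.0563, all edgeR) in turn. With the central neuron score Nr4a1 gave -3.97 (SE 1.45, adjusted p = 0.472, edgeR) in chow renin against chow control. In high-fat control against chow control that fit gave -2.15 (SE 0.53, adjusted p = 0.0794, edgeR). Averaged over both diets, renin had 0 of 10 by the same 3 tools, against 20.6% of all genes, and 0 at an unadjusted p under 0.05, against 33.3% of all genes. Comparisons with chow control share its 4 hearts and are not independent of each other.

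Within groups the 10 genes varied together from heart to heart. Each gene's log2 CPM was taken as a deviation from its group mean over the 21 hearts, and Pearson's r is given as a description, since the genes share library, depth and dissection. Of 45 pairs, 39 had r above 0, with a median of 0.36. Fos and Junb had the highest r at 0.87, followed by Junb and Egr1 at 0.84, Fos and Egr1 at 0.82, Egr1 and Ier2 at 0.78, and Fos and Fosb at 0.77. Nr4a1 and Nr4a2 had r of 0.51. Nr4a3 stood outside this pattern, with r of -0.40 to Egr1, 0.50 to Atf3 and -0.04 to the mean of the other 9 genes. Chow control 4 was above its group mean in all 10 genes, by 0.51 on average on the log2 scale, and high-fat renin 5 was below it in all 10, by a mean of -0.41. High-fat control 1 (mean 0.51) and chow renin 1 (mean 0.48) were also high. Over the 10054 other genes with a mean of at least 5 CPM, those most like the mean deviation of the 10 were Btg2 (r 0.88), an antiproliferative immediate early gene, Cryzl2 (0.76), Setd6 (0.76), Ppp1r15a (0.72), a stress-induced phosphatase subunit, and Zfp36 (0.71), which speeds decay of AU-rich messages.

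**Figure D4:**
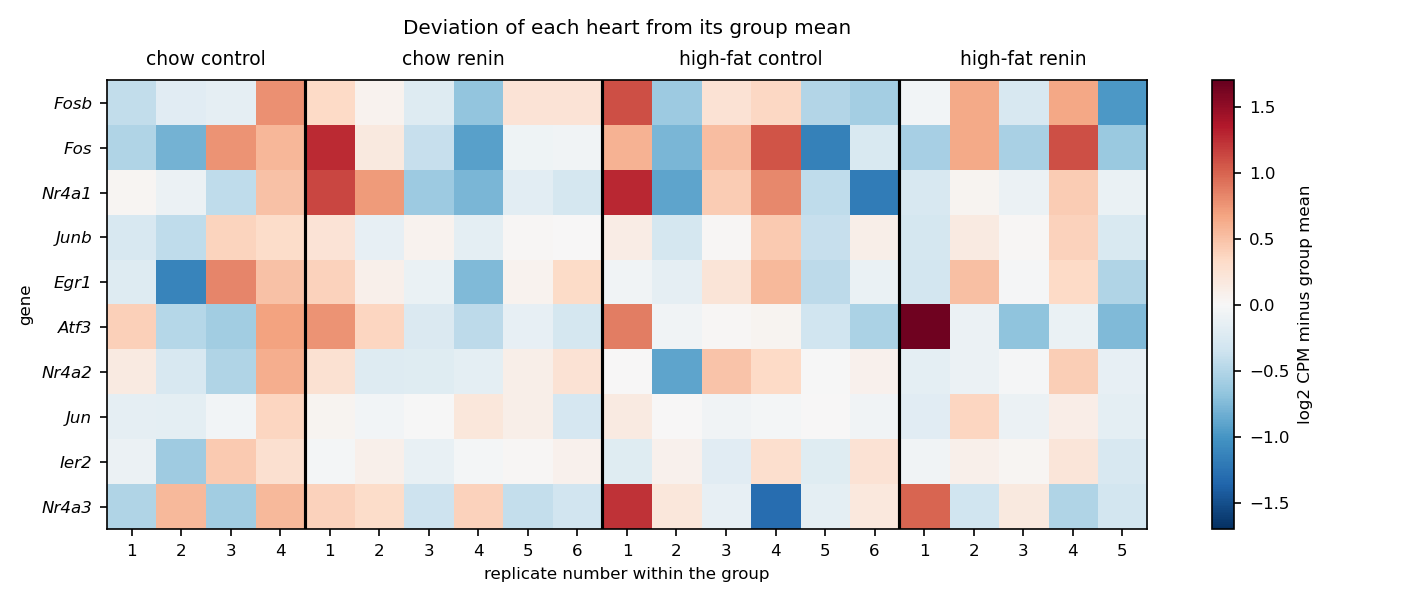
Log2 CPM of each gene (vertical axis) in each heart (horizontal axis, by group and replicate number) minus the group mean; the colour scale gives the deviation. Chow control 4 is positive for all 10 genes and high-fat renin 5 negative for all 10, and Nr4a3 often departs from the other genes.

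Other genes of the pathway came from 3 lists: 41 other immediate early genes, 29 upstream regulators and 19 feedback inhibitors, all tested. In the combined model against chow control 4 of the 41 other immediate early genes (9.76%), 1 of the 29 upstream genes (3.45%) and 2 of the 19 feedback inhibitors (10.5%) passed, next to 8.29% of all genes. Among the other immediate early genes 2 rose, the zinc finger genes Egr2 (log2 1.27, SE 0.37, adjusted p = 0.0330) and Egr3 (0.88, SE 0.21, adjusted p = 0.0120, both edgeR), relatives of Egr1. Csrnp1, a nuclear regulator, fell (-0.73) and so did Errfi1, an inhibitor of the EGF receptor (-0.47). Egr2 was scarce, at 0.305 ± 0.167 CPM in chow control (n = 4) and 0.746 ± 0.117 in high-fat renin (n = 5). The upstream gene that rose was the CREB relative Atf1 (0.26). Both feedback inhibitors fell, Dusp5, a nuclear phosphatase of ERK (-0.78, SE 0.10, adjusted p = 0.000124, edgeR), and Nab1, a corepressor of EGR proteins (-0.25). The median log2 fold changes of the 3 lists were -0.03, -0.01 and -0.03, next to 0.01 over all genes.

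For renin on the high-fat diet, against high-fat control, 5 of the 41 (12.2%), 2 of the 29 (6.9%) and 0 of the 19 passed by edgeR, next to 11.1% of all genes. Of those 5 other immediate early genes 1 was lower than in high-fat control and 4 were higher. The 4 were Arc (log2 0.85), Egr3 (0.66), the matricellular gene Ccn1 (0.54) and the small MAF gene Mafk (0.45). Among upstream genes Mapk14, the p38 kinase, fell (-0.38), as did the CREB coactivator Crtc2 (-0.25). Of the 19 feedback inhibitors 3 were higher and 3 lower at an unadjusted p under 0.05, next to 26.5% of all genes in either direction. Marker lists moved in this comparison too. By edgeR 4 of 6 cardiomyocyte, 2 of 8 day output, 1 of 5 smooth muscle and pericyte and 1 of 10 stimulated mesenchymal genes fell. Of the heat shock genes 2 of 5 rose, and of the positive limb genes 1 of 5. In chow renin against chow control 11 of the 41 other immediate early genes (26.8%) and 3 of the 19 feedback inhibitors (15.8%) rose, next to 10.1% of all genes that rose, and 0 fell by edgeR (5 and 2 were lower at an unadjusted p under 0.05). Of the 29 upstream genes 0 passed by edgeR, with 2 higher and 4 lower at an unadjusted p under 0.05. At that limit 25.1% of all genes differed in either direction. Chow renin was also the group whose nervous and stimulated mesenchymal markers stood apart. The part of those cells in the counts was not tested.

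In high-fat renin against chow renin 9 of the 41 other immediate early genes (22%), 4 of the 29 upstream genes (13.8%) and 5 of the 19 feedback inhibitors (26.3%) passed, next to 22.6% of all genes. Of the 9, 8 were lower and 1 higher. The 4 with the largest changes were Fosl1, an AP-1 subunit (log2 -2.05, SE 0.19, adjusted p = 3.52e-08, edgeR), Egr4 (-1.93), Errfi1 (-1.59) and Npas4, a neuronal activity factor (-1.10). Egr4 and Npas4 were scarce, at 0.542 and 0.893 CPM on average in chow renin. Of the feedback inhibitors 4 fell, Dusp5 (-1.37), Dusp14 (-1.07), Dusp4 (-0.84) and Nab2 (-0.33), and 1 rose. Upstream, Srf (0.33), Elk3 (0.32) and Atf1 (0.25) rose and the coactivator Crtc1 fell (-0.26). Here too the marker lists differed between the groups: all 7 central neuron genes and all 10 stimulated mesenchymal genes were lower in high-fat renin. The stimulated mesenchymal list was chosen from earlier results of these data, so its count is not independent evidence. In the comparison averaged over both vectors Dusp5 (-0.95), Errfi1 (-0.84), Fosl1 (-0.80), Myc (-0.48) and Csrnp1 (-0.48) fell, with 8 of the 41 other immediate early genes (19.5%) lower and 0 higher by edgeR (1 higher at an unadjusted p under 0.05), next to 7.78% of all genes that were lower. Of the 19 feedback inhibitors 2 rose and 2 fell (21.1% in either direction). Of the 29 upstream genes 3 rose (10.3%) and 0 fell by edgeR (2 were lower at an unadjusted p under 0.05). Of all genes 12.3% passed in either direction. For Fosl1 and Myc the null vector groups did not show a fall: Fosl1 averaged 0.800 CPM on chow and 1.08 CPM on the high-fat diet, and Myc 4.29 and 4.50 CPM, while chow renin stood at 5.16 CPM for Fosl1 and 9.84 CPM for Myc. In the same comparison 9 of 10 stimulated mesenchymal genes, the list chosen from earlier results of these data, and 5 of 7 central neuron genes were called lower.

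In the authors' deposited table, which gives 1 comparison labelled with the high-fat diet and virus and no stated reference group, Nr4a1 had the largest change of the 10, a log2 fold change of -0.37 with an adjusted p of 0.05004. Nr4a2 followed with -0.20 and an adjusted p of 0.147 in the authors' deposited table. The other 8 genes had adjusted p between 0.293 and 0.987 there.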

How the data were processed

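The authors deposited, for each heart, estimated counts (expected counts with decimals) and TPM per transcript, in the column layout of Salmon per the file headers. Salmon 1.10.2, DESeq2 1.40.2 and the build GRCm38 are named in the submitters' processing notes, with options not given in the sources used here. A further deposited gene matrix holds a normalized signal per library, and a log2 fold change with its adjusted p-value for a comparison the authors ran. Of 119215 transcripts, 98.0% matched GENCODE M21, and unmatched ones held at most 0.925% of reads. The tests had been laid out for whole counts, so gene sums were rounded. edgeR 4.0.16 (R 4.3.3) tested 15216 genes kept by filterByExpr in 1 fit over all 21 libraries with TMM factors, robust glmQLFit, the quasi-likelihood F test (two-sided) and Benjamini-Hochberg adjustment, with calls at an adjusted p under 0.05. The SE is the absolute log2 fold change over the square root of F. The log2 CPM of scores used a prior count of 2. DESeq2 1.42.0, limma 3.58.1, other factors, filters, covariates, a block on replicate number and leaving out each library were alternatives. The fit was also run on simulated counts with known changes, and the outcome is not given here.

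All 10 genes are named. Genes of the pathway lists are named where they are the up to 4 called genes with the largest change per list, in the comparisons of high-fat renin with chow control or high-fat control and where one of the 10 was called. The members and lists were chosen with earlier results of these data known. Nrxn3 in the central neuron list comes from such results. The 2 averaged comparisons were chosen after seeing the data.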

Additional observations from a re-analysis of the deposited data

Results flagged for a closer look

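In 6 of 40 groups of hearts (10 genes in 4 groups), the highest heart stood apart from the others by more than Dixon's 95% limit. For normally distributed values chance gives about 1 in 20 groups. The limit was applied to CPM rather than log2 CPM, so the 6 of 40 cannot be read as an excess over that rate. All levels are TMM-normalized CPM. Fos measured 12.4 in chow renin 1 and 2.65 to 5.76 in the other hearts of that group. Fosb measured 4.22 in chow control 4 and 1.79 to 2.18 in the others. Jun measured 82.7 in high-fat control 1 and 71.4 to 75.0 in the others. Atf3 measured 7.19 in high-fat control 1 against 2.67 to 4.03, and 16.1 in high-fat renin 1 against 2.96 to 4.72. Nr4a2 measured 3.59 in high-fat renin 4 against 2.36 to 2.62, and that value still lay below the lowest chow heart at 3.89. The 10 genes were tested on the same hearts, so these results are not independent of each other.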

How the results depend on the processing

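Of 2690 pairs of a gene's result and an alternative, 41 lost a call, 7 gained one and 0 called results changed direction, while 107 uncalled ones changed sign. In high-fat renin against chow control, 2 of the 10 genes passed. This count was 1 with no filter on low counts (Nr4a2) and 1 with the replicate block, 0 with the clock score as a covariate and 0 with limma on log2(signal + 1) of the authors' matrix (Nr4a2 -0.62, adjusted p = 0.233), and 1 to 2 when each library was left out. Nr4a2 passed in all 21 of those fits, at adjusted p = 0.00172 to 0.0335 by edgeR. In high-fat renin against chow renin, the count of 1 became 0 with the central neuron score. In chow renin against chow control, 0 became 1 (Atf3) with the clock score and ranged from 0 to 1 without single libraries. In high-fat control against chow control, 0 became 2 by DESeq2 and ranged from 0 to 1 without single libraries. For the interaction, 0 became 1 (Atf3) with the clock score. For the averaged diet comparison, Nr4a2 passed in 33 of 33 alternatives, and Nr4a1 lost its call in 11 single-library fits (adjusted p = 0.0545 to 0.0846). The count of 3 there was 1 (Nr4a2) with the clock or central neuron score or no filter. Fosb gained a call there without high-fat control 1 (-0.79, adjusted p = 0.0228). With every library thinned to the smallest, Nr4a2 gave -1.03 in high-fat renin against chow control (adjusted p = 0.00847).

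No source states whether replicate numbers pair hearts. Over 28 pairs of libraries with the same number, the correlation of their deviations from the group means ran from -0.23 to 0.42. The median was 0.08, next to -0.02 for pairs with other numbers. Replicate 3 of every group had an atrial score of 4.18 to 5.70. Chow renin 1 had 4.90, and all other hearts had at most 0.64. These values cannot settle whether the numbers pair hearts. The replicate block moved Nr4a1 to an adjusted p of 0.0599 and left Nr4a2 at -1.09 (adjusted p = 0.00389).

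Counts over all genes also moved. In high-fat renin against chow control 1262 genes passed, 803 with only those groups fitted, 0 with the clock score and 565 to 793 without chow control 1, 2 or 4 or high-fat renin 1, 2 or 5. Against high-fat control 1696 passed, 549 with only those groups, 0 with the clock score, 1063 with limma on the authors' signal and 696 to 934 without high-fat renin 1, 2 or 5. With the central neuron score, chow renin against chow control went from 2048 to 37, high-fat renin against chow renin from 3440 to 41 and the interaction from 1589 to 24. In high-fat control against chow control the 10 genes that passed were 124 by DESeq2, 0 by limma-voom, 5 with only those groups, 0 with the replicate block, 23 with the clock, 121 with the central neuron and 4 with the atrial score, and 0 to 57 without single libraries. The averaged diet comparison went from 1869 to 761 with the clock and 61 with the central neuron score, and the averaged renin comparison from 3136 to 431 and 103. The cause of these changes was not tested.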
